A study of Mus musculus with 931 samples.

Results

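Voltage-gated calcium, sodium and potassium channels, other potassium channels, TRP channels and HCN channels were followed in mouse islet β and α cells from late gestation to the adult. The genes were taken from the count tables by symbol: rows beginning with Kcn and a letter, with Cacna, Cacnb or Cacng, with Scn and a number, with Trpc, Trpm or Trpv and a number, and the 4 Hcn genes. This left 160 of 40824 gene rows after 5 antisense rows and Kcnj11, the pore of the ATP-sensitive potassium channel, were set aside. By name they comprise 10 pores and 16 auxiliary subunits of voltage-gated calcium (Cav) channels, 10 pores and 4 β subunits of sodium (Nav) channels, 40 pores and 13 auxiliary subunits of voltage-gated potassium (Kv) channels, 12 genes of calcium- or sodium-activated potassium channels, 14 inward rectifiers (Kir), 14 two-pore-domain (K2P) channels, 21 TRP channels and 4 HCN channels. A further 2 rows, Trpc4ap and Kcnq1ot1, match the symbol pattern but are not channels. They stay in the counts of channel genes tested and called below. Of these 2, 1 was called higher at P60 than at E17.5 in bulk β cells and 1 in α cells. Between the cell types 1 was called higher in α cells.

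In β cells, closure of ATP-sensitive potassium channels by glucose metabolism depolarises the membrane, voltage-gated calcium channels open, and the entering calcium triggers insulin secretion. Kv and calcium-activated potassium channels repolarise the cell, K2P channels carry a background current, and TRP cation channels can add depolarising current. α cells also fire action potentials carried by sodium and calcium channels, and release glucagon when glucose is low.

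Cells came from 7 stages, E17.5 and P0, then P3 and P9, then P15, P18 and P60, as days of gestation (E) or after birth (P). Sorted β cells of Ins1-RFP mice, a reporter line on a mixed C57BL/6 and C3H background, gave 14 bulk libraries, 2 per stage, each from pooled sorted cells. Single β cells of the same line (538 cells, 25 labelled batches) and single α cells of Gcg-Cre; Rosa-RFP mice (328 cells, 20 batches, no P3; C57BL/6, CBA/J and C3H) were either FACS-sorted or manually-picked and sequenced with Smart-seq2, a full-length protocol without molecular identifiers. In the α cells the Gcg-Cre transgene switches on a Rosa-RFP label that is then kept for life, so it marks cells that have expressed the transgene. Cell type and mouse strain cannot be told apart, no animal is named, and a batch of cells is the replicate here. The adjusted p-values therefore measure the spread between libraries or batches, which may be technical.

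Bulk libraries held 10.3 M to 21.4 M gene reads, and batch sums 5.96 M to 49.1 M. The 8 β-identity markers summed to 175748 to 248032 CPM (reads scaled to library size) in β batches at E17.5 and 639667 to 800700 at P60, against 1597 to 3745 and 503 to 1232 in α batches, where Mafa was at 0 at both stages. The 8 α-identity markers summed to 70506 to 102388 CPM in α batches at E17.5 and 327185 to 603133 at P60, against 1079 to 1229 and 686 to 1322 in β batches, where the α regulators Irx1 and Irx2 were at 0 at P60. In single β cells 1 of these 8 markers was higher and 5 were lower at P60 than at E17.5 by edgeR's test, and in bulk 1 was higher and 3 were lower. The bulk libraries also held acinar transcripts: 12 markers summed to 1334 to 4450 CPM at E17.5, 31593 to 49739 at P9 and 19888 to 57520 at P60, but to 5.81 to 23.0 CPM in the E17.5 and P60 single β batches. Summed endothelial, mesenchymal and duct markers were lower in both P60 bulk libraries than in both E17.5 libraries. By edgeR's test in bulk, 2 of 5 Schwann and neuron markers were higher at P60 than at E17.5 and 0 lower. Of 5 erythroid markers 0 were higher and 3 lower. For islet delta, epsilon and PP cells it was 2 and 2 of 6, 2 and 1 of 3, and 1 and 0 of 3. Of 5 immune markers 0 were called. The part of these cells in the channel values was not tested. Xist, the RNA of the inactive X chromosome, stood at 517 and 609 CPM in the E17.5 bulk libraries and at 0.425 and 0.767 at P60. It was also lower at P60 than at E17.5 on average in single cells, 0.488 against 75.9 CPM in β batches and 0.0897 against 143 in α batches. The sex of the animals may therefore differ between these stages, and sex and stage cannot be told apart here. An Xist covariate was fitted in the bulk libraries only, so no single-cell call below was run against it.

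Regulatory sequence is shown for 3 channel genes whose change from E17.5 to P60 differed between α and β cells (values further on), as the 250 bases before the RefSeq transcription start on build GRCm38.p6, 5′ to 3′ on the gene's strand. Capitals mark matches to the letters searched on both strands. These were the homeodomain core TAATTA, the cyclic AMP response element TGACGTCA, the Sp1-type motif GGGCGG and the core promoter motif TATAAA.
Trpm5 (chr7:143094643-143094892, minus strand): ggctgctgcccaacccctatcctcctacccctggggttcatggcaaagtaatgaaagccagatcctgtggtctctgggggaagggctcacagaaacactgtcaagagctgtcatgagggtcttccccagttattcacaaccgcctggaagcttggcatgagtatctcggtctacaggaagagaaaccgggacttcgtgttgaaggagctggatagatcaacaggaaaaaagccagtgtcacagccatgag
Trpm2 (chr10:77969873-77970122, minus strand): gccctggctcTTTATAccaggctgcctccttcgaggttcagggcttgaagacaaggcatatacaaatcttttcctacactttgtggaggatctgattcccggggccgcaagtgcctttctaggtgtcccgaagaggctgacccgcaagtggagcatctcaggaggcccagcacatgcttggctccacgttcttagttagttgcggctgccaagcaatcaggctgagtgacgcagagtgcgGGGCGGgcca
Kcna5 (chr6:126535556-126535805, minus strand): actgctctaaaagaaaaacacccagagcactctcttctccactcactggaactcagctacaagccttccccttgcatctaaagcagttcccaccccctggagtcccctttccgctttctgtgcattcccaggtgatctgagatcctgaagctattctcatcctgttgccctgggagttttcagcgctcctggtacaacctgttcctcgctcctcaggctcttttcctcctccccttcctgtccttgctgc
Only the Trpm2 window held a match among these 3, 1 of GGGCGG and 1 of TATAAA. Promoters were found for 121 of the 160 genes. GGGCGG occurred in 52 of these 121 against 32.9% of all 27025 mouse promoters, TATAAA in 7 against 13.0%, TAATTA in 1 against 4.90% and TGACGTCA in 0 against 1.62%. A match is a description of letters and says nothing about binding.

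The background potassium channel Kcnk16 was the most abundant channel transcript per length in single cells of both types. On a scale of reads per kilobase per TMM-scaled library size (RPKM), its level at P60 was 270 ± 40 (SD, n = 5 batches) in β cells and 295 ± 91 (n = 5) in α cells. The next levels at P60 in β cells were those of Kcnmb2, an auxiliary subunit of the large-conductance BK channel (48.4 RPKM), the calcium-activated cation channel Trpm5 (25.2) and Kcnip1, an auxiliary subunit of Kv4 channels (24.8). In α cells the order was different: Kcnh6, a Kv pore of the ERG family, followed Kcnk16 at 28.9 RPKM, then the K2P channel Kcnk1 at 27.2, Kcnip3 at 18.7 and Kcnmb2 at 14.8. Among Cav pores, Cacna1d, an L-type channel, led in P60 β cells at 5.59 RPKM.

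Summed over a class, K2P channels had the highest level in single cells at every stage. Their sum was 562 ± 131 RPKM (SD, n = 3) at E17.5 and 286 ± 42 (n = 5) at P60 in β cells, and 455 ± 23 (n = 4) and 340 ± 92 (n = 5) in α cells. Summed TRP levels were 24.9 RPKM at E17.5 and 42.2 at P60 in β cells and 16.7 and 9.01 in α cells. Nav pores summed to 2.63 and 5.98 RPKM in β cells and 3.21 and 12.0 in α cells, and Cav pores to 8.98 and 9.48 in β cells and 7.71 and 6.84 in α cells. The order of the stages depended on the scale. As TPM, which is not TMM-scaled and of which the hormone transcripts take a part, TRP sums were 43.9 ± 9.3 at E17.5 and 31.1 ± 8.4 at P60 in β cells and 49.0 ± 12 and 12.5 ± 2.4 in α cells. Cav pore sums were 15.6 and 6.89 TPM in β and 22.3 and 9.55 TPM in α cells, and Nav pore sums 4.68 and 4.33 TPM in β and 9.53 and 16.6 TPM in α cells. The TRP, Nav pore and Cav pore sums of β cells thus changed direction with the scale. No direction is drawn from the class sums, which were not tested.

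**Figure D1:**
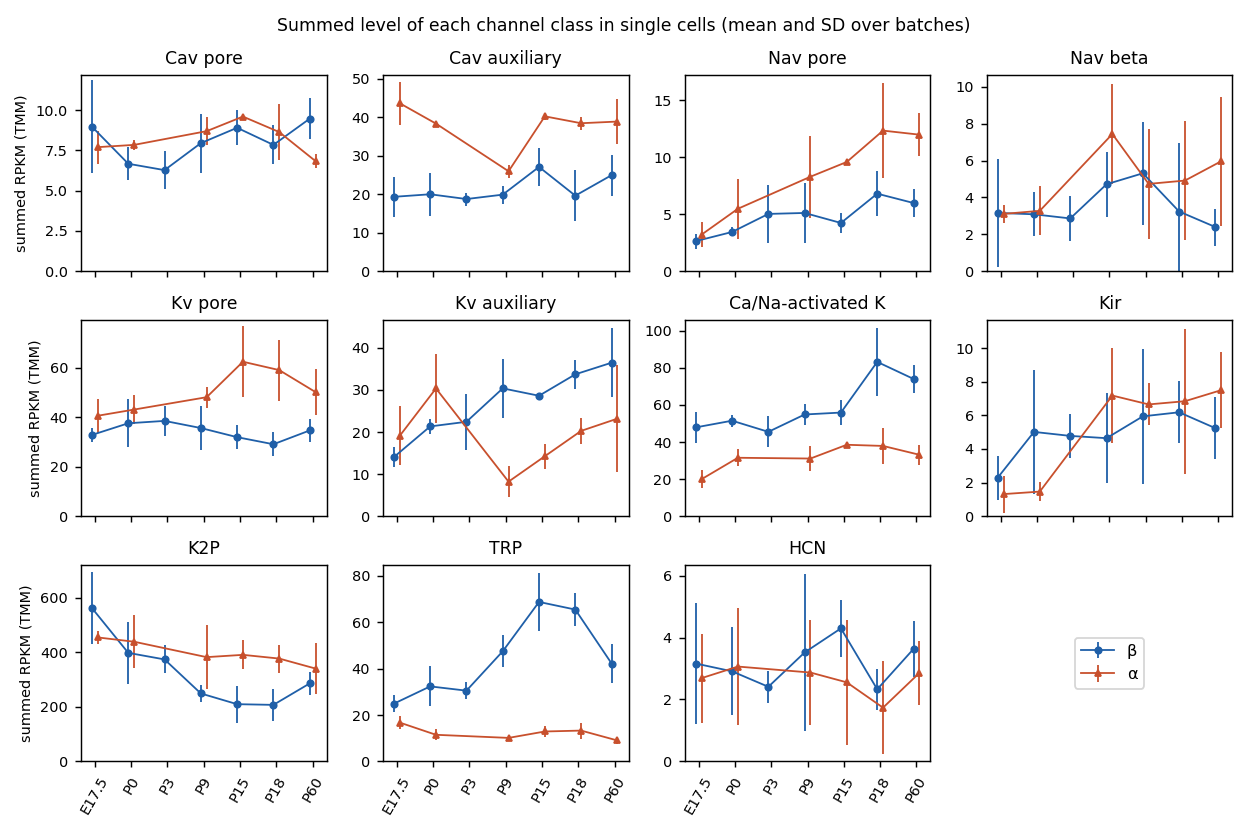
Summed level of each channel class by stage (x axis) in single cells, as RPKM on the TMM scale (y axis, starting at 0 in every panel). Blue circles are β and orange triangles α cells, with mean and SD over batches; K2P levels lie far above all other classes, and the TRP curves of β and α cells lie apart.

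Between E17.5 and P60 the calcium channel Cacna1h and the potassium channels Kcnk9 and Kcnc1 fell to near 0 in bulk β cells, while Kcnn3, Kcnip1 and Trpc4 rose. Of the 160 genes, 113 passed the low-count filter and 49 of them passed edgeR's quasi-likelihood test at an adjusted p under 0.05, 27 higher and 22 lower at P60. Over all 16086 genes tested 29.1% were called, 13.8% higher and 15.2% lower, against 43.4% of the channel genes, 23.9% higher and 19.5% lower. The median log2 change was -0.01 over the channel genes and -0.03 over all genes. In bulk RNA, fewer cells of a type and less RNA per cell cannot be told apart. The count of 49 fell to between 21 and 30 when any 1 of the 4 libraries was left out (30 and 21 for the first and second E17.5 replicate, 28 and 26 for those of P60). With the summed acinar level as covariate it was 11, and with the Xist level as covariate, an alternative chosen after seeing the data, it was 26. Neither covariate overlapped between the E17.5 and P60 libraries, nor did the acinar level between E17.5 and P9. Here and below such fits cannot tell stage and covariate well apart, and no cause is drawn from a lost call.

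Cacna1h, a low-voltage-activated T-type calcium channel, stood at 113 and 187 CPM in the E17.5 libraries and at 69.7 and 55.8 at P0. It was at 26.0 and 22.4 at P3, 11.8 and 8.78 at P9, and 1.42 and 2.11 at P60. The groups did not overlap at any of these steps, and the change from E17.5 to P60 was -6.39 ± 0.45 on the log2 scale (SE; edgeR adjusted p = 4.9e-06). Kcnk9, a K2P channel also known as TASK-3, was highest at birth, with 159 and 174 CPM at P0 against 94.1 and 125 at E17.5. It then dropped to 28.4 and 21.8 CPM at P3, 3.42 and 0.591 at P9 and 0.283 and 0.320 at P60, a log2 change of -8.46 ± 0.65 from E17.5 (edgeR adjusted p = 9.5e-06). Kcnc1, a Kv3 pore of fast-spiking cells, was also highest at P0, with 29.2 and 21.2 CPM against 7.75 and 7.72 at E17.5 and 0.566 and 0.256 at P60 (log2 -4.22 ± 0.50, edgeR adjusted p = 0.00013).

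Among the gains, Kcnn3, the small-conductance calcium-activated channel SK3, went from 15.6 and 11.7 CPM at E17.5 through 37.6 and 44.2 at P9 to 125 and 119 at P60. It rose by 3.16 ± 0.35 on the log2 scale (edgeR adjusted p = 8.7e-05). Kcnip1 stood at 23.04 and 17.49 CPM at E17.5, 52.9 and 47.9 at P9 and 61.7 and 93.3 at P60 (log2 1.93 ± 0.22, edgeR adjusted p = 0.00012). Trpc4, a receptor-operated cation channel, was at 0.997 and 1.23 CPM at E17.5, still at 1.57 and 2.62 at P9, and at 17.1 and 15.5 at P60 (log2 3.87 ± 0.40, edgeR adjusted p = 5.8e-05). The calls of these genes held in every alternative that was run for the comparison of P60 with E17.5, both covariates included.

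Trpm5 was at 57.0 and 57.5 CPM at E17.5, 35.5 and 42.0 at P0, 230 and 175 at P18, and 128 and 139 at P60. Its rise to P60 was 1.22 ± 0.26 on the log2 scale (edgeR adjusted p = 0.0054), and the call was lost with the acinar covariate (adjusted p = 0.14) and the Xist covariate (adjusted p = 0.15). Kcnq1, a Kv pore, fell late: 16.8 and 18.8 CPM at E17.5, 15.9 and 16.0 at P9, and 4.96 and 4.16 at P60 (log2 -1.96 ± 0.28, edgeR adjusted p = 0.00043; adjusted p = 0.063 with the acinar covariate). Its exons overlap those of the antisense transcript Kcnq1ot1, so reads of the pair cannot be assigned with certainty. Leaving out any single library kept the calls of Trpm5 and Kcnq1.

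Other called genes depended on single libraries. Kcnk16 was at 278 and 319 CPM at E17.5 and 157 and 205 at P60 (log2 -0.73 ± 0.22, edgeR adjusted p = 0.028), and the call was lost without either E17.5 replicate or without P60 replicate 1. Cacna1c, the L-type pore Cav1.2, was at 63.6 and 72.4 CPM at E17.5 and 110 and 117 at P60 (log2 0.73 ± 0.20, edgeR adjusted p = 0.016), lost without any 1 of the 4 libraries. The other main calcium pores did not pass: Cacna1d was at 179 ± 4.2 CPM (SD, n = 2) at E17.5 and 242 ± 38 at P60, and the P/Q-type Cacna1a at 186 ± 55 and 106 ± 3.0 (edgeR adjusted p = 0.14 and 0.060). Exons of Cacna1h, Cacna1d, Cacna1a and Trpm5 each overlap an exon of another gene on the opposite strand.

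By class, the Kv auxiliary subunits had 5 of 9 tested members higher and 0 lower, beside 13.8% and 15.2% of all genes. These and the following class counts are calls of the full fit, whose total depended on single libraries. They include Kcnip1, Kcnip2, Kcnip3 and Kcnab3. Of 26 Kv pores 5 were higher and 4 lower, of 13 TRP channels 3 higher and 1 lower, and of 9 Cav pores 2 higher and 3 lower. K2P and Kir channels each had 2 higher and 2 lower, among 10 and 8 tested. Of 7 Nav pores 1 was higher and 2 were lower.

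**Figure D2:**
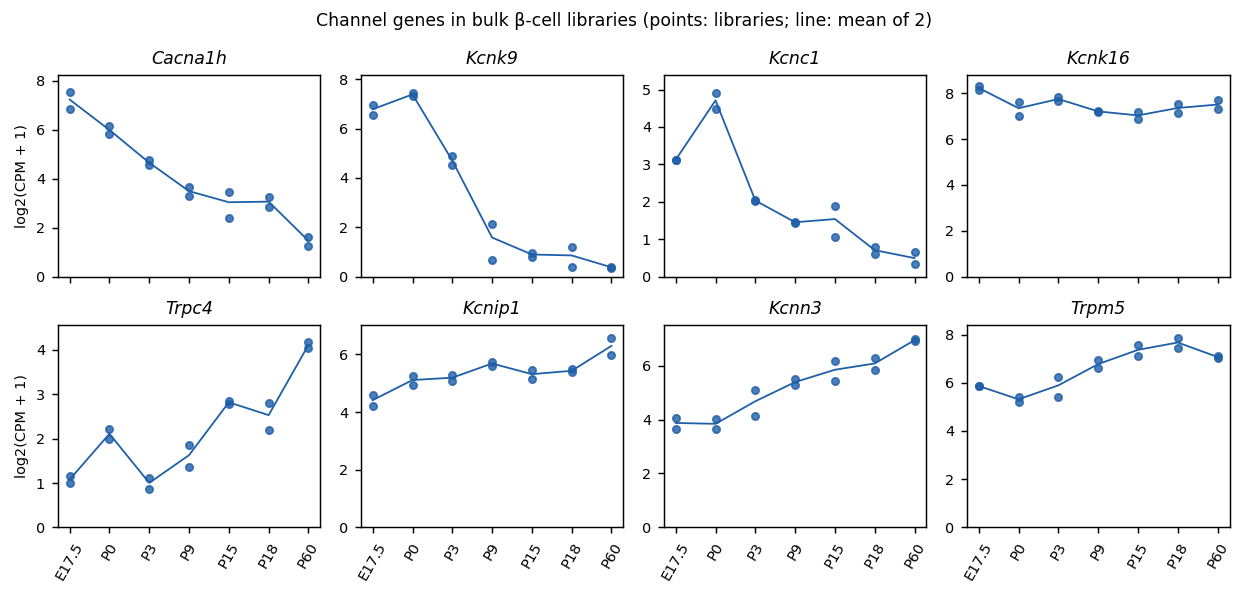
Level of 8 channel genes by stage (x axis) in bulk β-cell libraries, as log2(CPM + 1) (y axis, scaled per panel). Points are libraries and lines join the means of 2; Cacna1h, Kcnk9 and Kcnc1 end near 0, and Kcnn3 and Trpc4 are highest at P60.

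Splitting the span at P9 placed the changes in time. From E17.5 to P9, 15 of 113 channel genes passed edgeR's test, 10 higher and 5 lower, beside 8.18% of all genes (4.69% higher, 3.49% lower). The 5 that fell were Cacna1h, Kcnk9, Kcnc1, Kcnk16 and the Nav β subunit Scn2b. Scn2b lost its call without E17.5 replicate 1 or P9 replicate 1, and Kcnc1 and Kcnk16 theirs without any 1 of the 4 libraries. Among those that rose were Cacna1c, Kcnip1, Kcnn3, Hcn2 and Trpm7. The count dropped to 6 for either E17.5 replicate left out, and to 6 and 8 for the P9 replicates; it was 23 by DESeq2, and 0 with the acinar covariate. From P9 to P60, 22 passed, 7 higher and 15 lower, beside 16.2% of all genes (6.79% higher, 9.43% lower). Without P9 replicate 1, P60 replicate 1 and P60 replicate 2 the count was 8, 12 and 7. Tested for any difference among the 7 stages, 41 of 113 passed, beside 31.2% of all genes. That count was 27 without either E17.5 replicate and 20 with the acinar covariate. The smallest p in that test belonged to Kcnk9, Cacna1h and Kcnc1.

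Kcnf1, a Kv subunit that is silent on its own, had the largest late rise and a course unlike the others. It was at 4.21 and 3.76 CPM at E17.5, at 31.8 and 31.6 at P0, at 0.427 and 0.676 at P9, and again at 25.4 and 30.0 at P60. From P9 to P60 it rose by 5.69 ± 0.91 on the log2 scale (edgeR adjusted p = 0.0031). This call, like those of Trpc4 (log2 2.98 ± 0.38), Kcnq1 (-1.81 ± 0.28) and Cacna1h (-2.54 ± 0.43), held in every alternative run for this comparison (edgeR adjusted p = 0.001, 0.0026 and 0.0038). The R-type pore Cacna1e fell from 5.51 ± 0.21 CPM at P9 to 0.426 ± 0.30 at P60 (log2 -3.65 ± 0.84, edgeR adjusted p = 0.015), lost without P9 replicate 1 or either P60 replicate. The T-type pore Cacna1i fell too, from 3.14 to 0.404 CPM (edgeR adjusted p = 0.0042, lost without P60 replicate 2).

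In single β cells, which share no library with the bulk samples, Cacna1h, Kcnk9 and Kcnk16 fell and Cacna1c rose, each in the direction seen in bulk. Cacna1h stood at 17.2, 28.8 and 34.2 CPM in the 3 E17.5 batches and at 0 in all 5 P60 batches, at least 1003-fold lower when 3 reads over the group are taken as the floor (edgeR adjusted p = 0.0030). Kcnk9 was at 17.3, 12.3 and 0.983 CPM at E17.5 and at 0 in all 5 at P60, at least 383-fold lower (edgeR adjusted p = 0.00042). The batch at 0.983 CPM was the only FACS-sorted one of β cells at E17.5. Cacna1h and Kcnk9 were both listed at 0 from P9 on. In bulk β cells Cacna1h fell less (log2 -6.39) and still stood at 0.214 RPKM at P60. In single β cells the Kv1 pore Kcna5 was at 3.92, 0.848 and 1.62 CPM and then at 0 in all 5, at least 79.8-fold lower (edgeR adjusted p = 0.00037). Bulk β cells did not show this loss: there the log2 change of Kcna5 was -0.47 and not called, with 0.377 RPKM at P60. Floors and intervals on reads cover counting error only, since reads without identifiers are not independent molecules.

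Kcnk16 was at 608, 389 and 431 CPM at E17.5 and at 265, 274, 209, 193 and 246 at P60, with no overlap. It fell by 1.02 ± 0.25 on the log2 scale (edgeR adjusted p = 0.0071), and the call was lost without β E17.5 replicate 1, a batch of 5 cells. Cacna1c was at 4.39, 16.9 and 8.25 CPM against 15.5 to 33.1, and Trpm7 at 13.8, 32.8 and 27.1 against 29.1 to 55.9. Both passed (edgeR adjusted p = 0.021 and 0.049) with groups that overlapped, Cacna1c losing its call in 3 and Trpm7 in 5 of 8 leave-one-out fits.

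In single β cells 7 of 118 channel genes tested were called, 3 higher and 4 lower, beside 6.97% of all 18537 genes (3.08% higher, 3.89% lower). That is 5.93% of the channel genes, near the background. Without β E17.5 replicate 1 the count was 4. Restricted to FACS-sorted batches, which leave 1 batch at E17.5, edgeR called 0, and restricted to manually-picked batches it called 4. Cacna1h had an adjusted p of 0.059 in the former and 0.098 in the latter edgeR fit, with 0 reads at P60 in both. Without scaling factors 0 were higher and 15 lower. DESeq2 on all batches called 10, and 26 had an unadjusted edgeR p under 0.05.

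The direction of change in bulk and single β cells was compared gene by gene. Of the 49 genes called in bulk, 47 could be tested in both, and 42 had the same sign in single cells: 27 of 27 that rose and 15 of 20 that fell. Of 54 genes not called in bulk 38 had the same sign. Only 5 of the 47 were also called in single cells. Kcnn3 for instance was at 0, 8.93 and 13.1 CPM in E17.5 batches and 37.6 to 50.8 at P60, without overlap, but did not pass (log2 2.50 ± 1.08, edgeR adjusted p = 0.18). Kcnip1 had 29.1 ± 9.9 CPM (SD, n = 3) at E17.5 and 102 ± 32 (n = 5) at P60 (edgeR adjusted p = 0.40). The shares with the same sign and with calls in both were not taken over all genes. Nothing particular to channel genes is drawn from them.

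**Figure D3:**
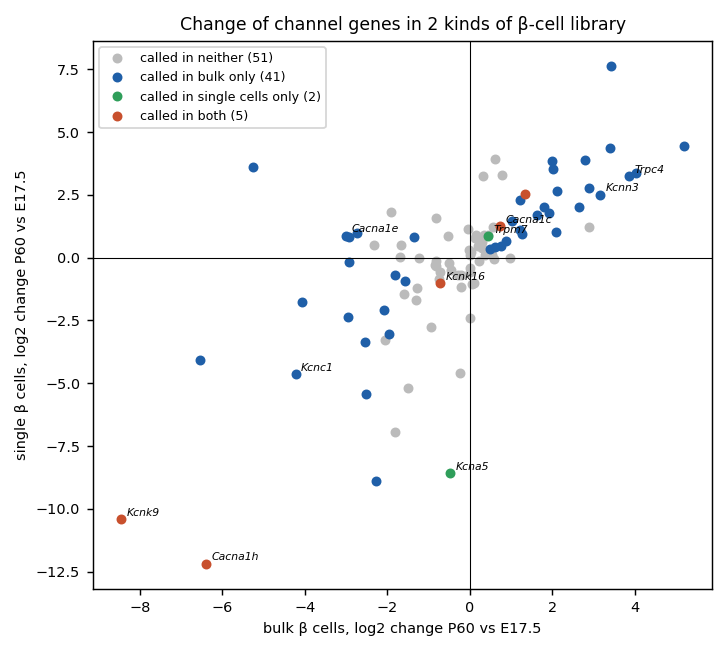
Fitted log2 change from E17.5 to P60 of each channel gene tested in both, in bulk β cells (x axis) and in batch sums of single β cells (y axis), coloured by where the gene was called, with symbols for some of the genes named in the text. All genes shown that were called higher in bulk lie above 0 in single cells. Values beyond -7 belong to genes at or near 0 reads at P60 and are no bounds.

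In α cells Trpm2, a cation channel gated by ADP-ribose, fell between E17.5 and P60, and the sodium channel Scn9a, the G-protein-gated rectifier Kcnj6 and the SK channel Kcnn3 rose. In all, 12 of 118 channel genes passed edgeR's test, 5 higher and 7 lower, which is 10.2% beside 9.97% of all genes (4.30% higher, 5.66% lower). With FACS-sorted batches alone 3 were called, with manually-picked batches alone, which leave 1 batch at E17.5, 6, and without scaling factors 20, 3 higher and 17 lower.

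Trpm2 was at 27.8, 37.9, 11.6 and 41.8 CPM in the 4 E17.5 α batches and at 2.1, 2.46, 3.46, 3.83 and 1.80 in the 5 P60 batches. The groups lay apart, with a log2 change of -3.60 ± 0.56 (edgeR adjusted p = 2.3e-05), and the call held in every alternative run. It was already at 3.20 ± 0.83 CPM (SD, n = 3) at P9. Scn9a, the pore Nav1.7, was at 4.16, 0.064, 14.5 and 12.6 CPM at E17.5 and at 55.6, 63.5, 24.5, 64.5 and 23.1 at P60 (log2 2.51 ± 0.62, edgeR adjusted p = 0.0063). Its stage means were 9.00 CPM for P0, 19.7 for P9, 31.0 for P15 and 40.4 for P18. The call was lost within FACS-sorted and within manually-picked batches (adjusted p = 0.18 and 0.20), where the log2 changes were 2.68 and 1.97.

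Kcnn3 was at 0, 4.00, 0 and 0 CPM in E17.5 α batches and at 13.8, 53.3, 58.8, 13.3 and 19.2 at P60 (log2 4.84 ± 1.13, edgeR adjusted p = 0.0038). It had reached 35.4 ± 18 CPM (n = 3) by P9, and the call was lost within FACS-sorted batches (adjusted p = 0.13). Kcnj6 was at 0, 3.04, 0.405 and 0 CPM and then at 27.6, 19.5, 9.27, 13.5 and 11.7 (log2 4.29 ± 1.27, edgeR adjusted p = 0.025), lost without α E17.5 replicate 1, 3 or 4 or α P60 replicate 1. Cacng5, a Cav γ subunit that also serves glutamate receptors, was at 11.3, 32.6, 15.8 and 20.2 CPM and then at 0.319, 0, 0, 0 and 0.5999 (edgeR adjusted p = 0.039, lost in 7 of 9 leave-one-out fits). Cacna1h was at 5.49, 0.576, 5.47 and 1.92 CPM at E17.5 and at 0 in all 5 P60 batches, at least 103-fold lower (edgeR adjusted p = 0.013; 0.060 within FACS-sorted and 0.21 within manually-picked batches). Thus Cacna1h was at 0 at P60 in the single-cell batches of both cell types, though not in the bulk β libraries.

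Kcnmb2 was at 24.3 ± 5.3 CPM (n = 4) and 43.3 ± 14 (n = 5) in α cells and passed narrowly (edgeR adjusted p = 0.0497), a call lost in 7 of 9 leave-one-out fits. Kcnj3, which pairs with Kcnj6 in G-protein-gated channels, was at 0.525 ± 0.61 and 14.9 ± 6.1 CPM but did not pass (edgeR adjusted p = 0.059). Trpc5 and Cacna2d3 were at 2.48 and 1.78 CPM at E17.5 and at 0 at P60 (edgeR adjusted p = 0.0065 and 0.022). Cacna2d3 lost its call without α E17.5 replicate 4 or α P60 replicate 1 or 5, and neither gene was called within 1 collection method. Hcn4 also passed at under 1 CPM. Kcnq1ot1, a long non-coding RNA, rose from 141 to 212 CPM (log2 0.63 ± 0.19, edgeR adjusted p = 0.027), and its sign turned to -0.14 without scaling factors. Its call was lost without α E17.5 replicate 3 or 4 or α P60 replicate 3.

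Whether the change differed between the cell types was tested directly, as the α change minus the β change. Of 118 genes 4 passed edgeR's test, 3.39% beside 3.67% of all genes (2.02% higher, 1.65% lower): Kcna5 and Kcnk3 higher, Trpm2 and Trpm5 lower in α relative to β cells. With FACS-sorted batches alone edgeR called 0 and by DESeq2 9, and 22 genes had an unadjusted edgeR p under 0.05.

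Trpm5 was at 0.409, 7.53, 3.78 and 9.96 CPM in E17.5 α batches and at 0.0913, 0, 0, 0 and 2.07 at P60, a log2 change of -3.63 ± 0.82 (edgeR adjusted p = 0.0032; 0.36 within FACS-sorted batches). In β batches it was at 59.9, 34.4 and 51.3 CPM and then at 82.2, 131, 128, 79.3 and 98.4, which did not pass (edgeR adjusted p = 0.45). The difference of the changes was -4.73 ± 1.13 (edgeR adjusted p = 0.011), between -8.40 and -4.03 over the leave-one-out fits, and -2.68 in FACS-sorted (adjusted p = 0.71) and -11.86 in manually-picked batches (adjusted p = 0.0004). The summed β-identity markers in α batches were also lower at P60 than at E17.5, as given above, and their part in the Trpm5 values was not tested. Trpm2 was at 5.46, 14.2 and 16.2 CPM in E17.5 and 7.62 to 12.0 in P60 β batches. Its difference of -3.25 ± 0.80 (edgeR adjusted p = 0.013) lost the call without β E17.5 replicate 1 and within FACS-sorted batches (adjusted p = 0.36).

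Kcna5, the Kv1.5 pore, was at 9.87, 11.7, 7.90 and 3.75 CPM in E17.5 α batches and at 4.97, 4.47, 21.8, 6.56 and 22.6 at P60. The α groups overlapped, while the β batches went from low levels to 0. The fitted difference of 9.26 ± 1.79 (edgeR adjusted p = 0.0028) involves that 0 and is no bound on a fold, and it lost the call within either collection method (adjusted p = 0.25 and 0.079). Kcnk3, the K2P channel TASK-1, was at 0, 6.16 and 10.9 CPM and then at 1.08, 1.66, 0, 1.14 and 0 in β batches. In α batches it was at 18.4, 16.8, 20.9 and 3.45 CPM and then at 91.0, 27.2, 39.6, 29.1 and 44.1. The difference of 4.62 ± 1.36 (edgeR adjusted p = 0.047) was lost in 15 of 17 leave-one-out fits.

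**Figure D4:**
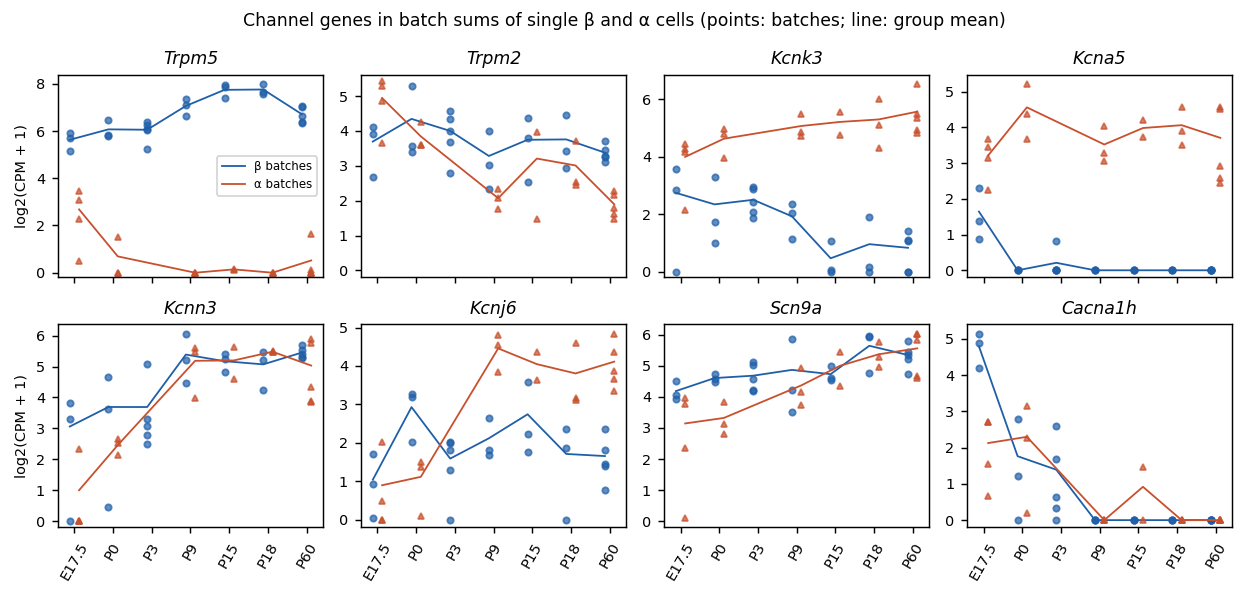
Level of 8 channel genes by stage (x axis) in batch sums of single β cells (blue circles) and α cells (orange triangles, none at P3), as log2(CPM + 1) (y axis, scaled per panel). Points are batches and lines join group means; Trpm2 in α cells goes from 29.8 CPM at E17.5 to 2.73 at P60, while Kcnn3 ends high in both cell types.

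Averaged over the 6 stages with both cell types, 46 of 118 channel genes differed between α and β cells by edgeR's test, 22 higher and 24 lower in α cells. That is 39.0% beside 28.8% of all genes, with 18.6% higher beside 14.1% and 20.3% lower beside 14.6%. The count was 26 within manually-picked batches, and without scaling factors 29 were higher and 21 lower. Markers of other cells also differed: 7 of 11 acinar and 4 of 5 erythroid markers tested were higher in α cells, with none lower. Of 3 PP markers 2 were higher in α cells and 0 lower, of 5 delta markers 2 and 1, and of 3 epsilon markers 1 and 0. Of 5 mesenchymal markers 2 were higher and 0 lower. For duct, immune, and Schwann and neuron markers it was 0 and 2 of 7, 0 and 1 of 3, and 0 and 1 of 3. Acinar markers summed to 35.1 to 1244 CPM in the α batches and 0.0449 to 145 in the β batches of these 6 stages, and erythroid markers to 0.789 to 1687 and 0 to 29.5. Their part in the channel values was not tested. Auxiliary subunits of Cav channels, Nav pores and K2P channels held more genes that were higher in α cells, and TRP and calcium-activated potassium channels more that were higher in β cells. Of 11 Cav auxiliary subunits 5 were higher in α cells and 0 lower, of 6 Nav pores 3 and 0, of 3 Nav β subunits 2 and 1, of 10 K2P channels 4 and 0, of 14 TRP channels 1 and 7, of 10 calcium- or sodium-activated potassium channel genes 1 and 4, and of 31 Kv pores 3 and 6. Of 9 Cav pores none passed in either direction, though 52 of the 118 genes had an unadjusted edgeR p under 0.05 and DESeq2 called 51. Cacna1d, for example, averaged 35.4 CPM in β and 34.5 in α cells.

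Trpm5 was at 34.4 to 254 CPM in the β batches and at 0 to 9.96 in the α batches, a log2 difference of -9.78 ± 0.60 (edgeR adjusted p = 6.4e-15). Kcnip1 was at 18.8 to 144 CPM in β and 0 to 10.9 in α batches, again without overlap (log2 -6.81 ± 0.72, edgeR adjusted p = 1.3e-09). Trpm3, a steroid-sensitive cation channel, averaged 6.23 CPM in β and 0.173 in α cells, and Kcnmb2 119 and 45.8 (log2 -1.38 ± 0.13, edgeR adjusted p = 8.5e-11). The rectifiers Kcnj12 and Kcnj5 averaged 5.70 and 3.92 CPM in β cells and had 0 reads in all 20 α batches, at least 783-fold and 579-fold lower. Their calls were each lost without 1 β batch (E17.5 replicate 2 for Kcnj12, P0 replicate 2 for Kcnj5).

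On the α side, Kcnh6 was at 42.6 to 151 CPM in α and 17.7 to 60.6 in β batches, higher in α cells at 6 of 6 stages (log2 1.42 ± 0.13, edgeR adjusted p = 2.9e-11). Kcnk3 averaged 31.8 CPM in α and 2.44 in β cells, and Kcnk1 55.4 and 27.6 (log2 4.09 ± 0.50 and 1.04 ± 0.15, edgeR adjusted p = 1.9e-08 and 3.4e-07). Kcnip3, a calcium-binding Kv4 subunit, averaged 40.1 and 3.72 CPM (log2 3.64 ± 0.52, edgeR adjusted p = 5.1e-07). Scn3a, a sodium channel of the embryonic brain, averaged 40.7 CPM in α and 7.22 in β cells and the Nav β subunit Scn3b 11.3 and 1.75 (edgeR adjusted p = 8e-06 and 6.2e-06). Among Cav auxiliary subunits, Cacng4 averaged 11.1 and 0.442 CPM and Cacnb3 38.7 and 22.0 (edgeR adjusted p = 1.2e-07 and 2.7e-05). Kcna5 averaged 14.0 CPM in α and 0.355 in β cells (edgeR adjusted p = 5.2e-11). The calls of these α-side genes, and those of Trpm5, Kcnip1, Trpm3 and Kcnmb2, held in every alternative run. Exons of Kcnk1, Kcnk3, Kcnj3, Kcnj6, Scn9a and Trpm3 overlap an exon of another gene on the opposite strand and those of Trpm2 on the same strand, so their counts are uncertain to that extent.

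**Figure D5:**
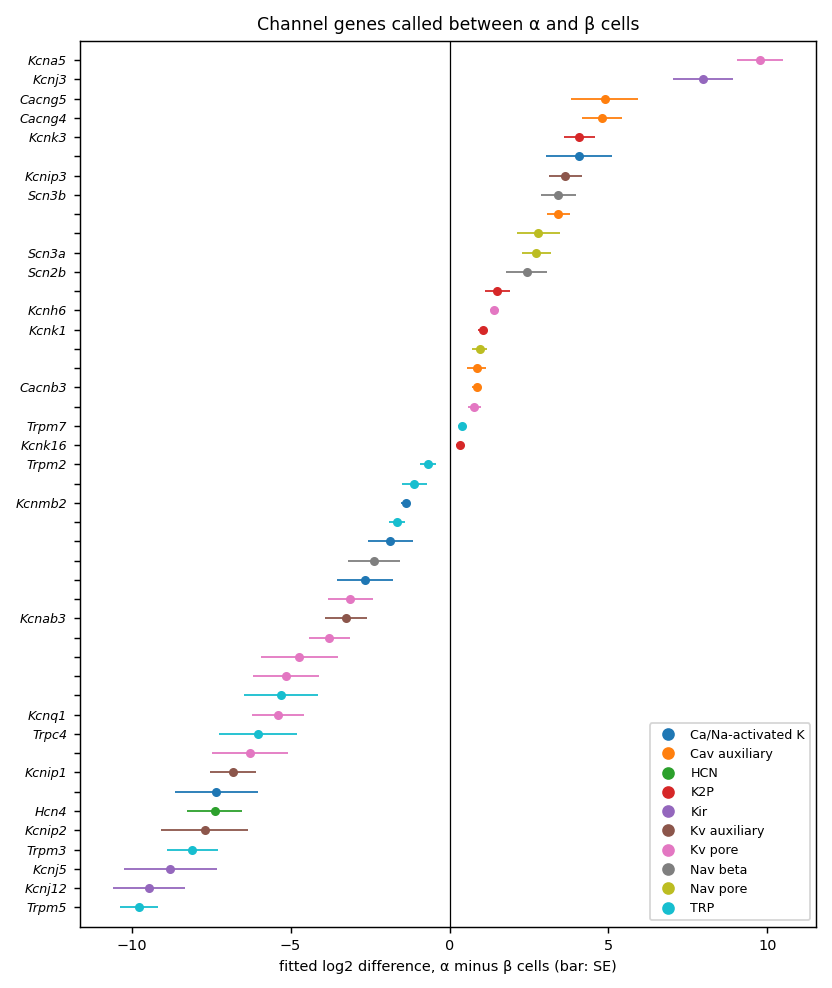
Fitted log2 difference between α and β cells (x axis, α minus β, bars are SE) for each called channel gene (y axis, 1 row per gene, with symbols for genes named in the text), coloured by channel class. Values below 0 are higher in β cells, as are 7 of the 8 TRP channels, with Trpm5 at the far end, while all Cav auxiliary, Nav pore and K2P genes shown lie above 0; differences beyond 7 involve groups at or near 0 reads.

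The share of cells with at least 1 read was taken after each cell was thinned to 500000 reads. Cacna1h had a read in 71.9% of β cells at E17.5 and in 0 of 129 at P60. Taking 3 cells of 129 as the limit gives a share of cells with a read of up to 2.33%. The exact 95% binomial interval reaches 2.82%. In α cells its share was 15.4% and 0%, the latter of 83 cells (up to 3.61%, or 4.35% by the exact interval). These limits concern cells with a read at this depth, not cells that express the gene. They take cells as independent, although the batch is the replicate here, so they may be too narrow. Kcnn3 had a read in 35.1% of β cells at E17.5 and 89.9% at P60, and in 3.08% and 53.0% of α cells. Trpm5 had a read in 80.7% and 92.2% of β cells and in 20.0% and 2.41% of α cells, and Kcnk16 in 100% in all 4 groups. Trpm2 was read in 90.8% of E17.5 and 48.2% of P60 α cells. Kcnk3, at 61.5% and 71.1% of α cells, was read in 47.4% of β cells at E17.5 and 5.43% at P60. A cell had reads of a median of 31 channel genes at E17.5 and 28 at P60 in β cells, and of 32 and 24 in α cells.

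Genes that work with these channels but carry other symbols were counted from a separate list of 55 (pumps, exchangers, store-operated calcium entry, NALCN complex, calcium channel regulators and others), of which 54 were in the tables. In bulk β cells 17 of 53 tested were higher and 7 lower at P60 than at E17.5 by edgeR's test, beside 13.8% and 15.2% of all genes. With the acinar covariate 4 were higher and 1 lower. In single β cells 8 of 49 were higher and 1 lower, beside 3.08% and 3.89% of all genes, and in α cells 7 and 0, beside 4.30% and 5.66%. Rem2, an inhibitor of voltage-gated calcium channels, fell in single β cells from 52.7 to 7.08 CPM (log2 -2.91 ± 0.60, edgeR adjusted p = 0.0013). Stim1, the calcium sensor of the endoplasmic reticulum, rose from 17.48 to 87.33 CPM (log2 2.32 ± 0.34) and the sodium leak channel Nalcn from 3.26 to 17.2 (log2 2.55 ± 0.72, edgeR adjusted p = 0.022). In α cells Fgf12, a regulator of sodium channels, rose from 7.46 to 53.3 CPM and Dpp10, a Kv4 subunit, from 16.7 to 62.0 (edgeR adjusted p = 0.0001 and 0.0007). Between the cell types 9 of 49 were higher and 11 lower in α cells, beside 14.1% and 14.6% of all genes.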

How the data were processed

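The deposited tables give whole-number read counts per gene, made by the authors with no normalization, per the file headers. The deposited gene lengths in bases, a column classed as other, were supplied by the authors. TopHat2 2.1.0, HTSeq 0.6.0 and DESeq 1.20.0 with builds GRCm38 and mm10 are named per the submitters' processing notes. Tool roles and the strand setting of counting are not given in the sources used here, so counts of overlapping genes are uncertain: 43 of the 160 genes overlap an exon on the other strand and 5 one on the same strand. Spike-in rows (92, with a median share of 2.72% per cell) were left out, and 0 columns were identical.

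Counts of all cells in a batch were added up. Cells held 0.521 M to 2.32 M reads (median 1.15 M). Tests used edgeR 4.0.16 in R 4.3.3: quasi-likelihood, TMM, low-count filter, and Benjamini-Hochberg adjustment over all genes tested. The 14 bulk libraries formed 1 fit with stage as factor. The 45 batches formed 1 fit with 13 groups of stage and cell type and the collection method as covariate. Fits leaving out a batch reused the dispersion trend and gene set of the full fit, and those leaving out a bulk library assume that the lone library of that stage varies like the others. The design named TPM for levels between genes. RPKM from counts, gene lengths and TMM-scaled library sizes were used instead, since hormone transcripts take a growing part of TPM. Alternatives used DESeq2 1.42.0, other scaling factors, no filter, covariates, the replicate number as block, and each collection method alone. The channel genes and lists were chosen with earlier results of these data known. Named are the 6 largest rises and falls per comparison among called genes at 5 CPM or more without overlap, the most abundant member of each class and a list of 50 genes. Cacna1i, Cacna2d3, Hcn4, Scn2b, Trpc5 and the genes named from the list of 55 were chosen after their values were seen. Promoters come from RefSeq on GRCm38.p6. Cells labelled with more than 1 hormone, enriched for proliferation or Ngn3-GFP entered no comparison. Some genes are not reported here.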

Additional observations from a re-analysis of the deposited data

Results flagged for a closer look

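Kcnk3 in the P60 α cells had 1 batch far from the other 4: 91.0 CPM in replicate 1 and at most 44.1 CPM in the rest, a gap of 0.736 of the group's range. This was looked for in 17 groups of channel gene and stage, and chance flags about 1 in 20. For 4 genes the change from E17.5 to P60 differed between α and β cells by edgeR's test of the difference of log2 changes, α minus β. The values were 4.62 for Kcnk3 (edgeR adjusted p = 0.047), 9.26 for Kcna5 (edgeR adjusted p = 0.0028), -3.25 for Trpm2 (edgeR adjusted p = 0.013) and -4.73 for Trpm5 (edgeR adjusted p = 0.011). That of Kcna5 rests on β batches at 0 reads at P60.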

How the results depend on the processing

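The number of channel genes called moved by over 1.5 times under these alternatives, each against the reported count. For bulk P60 against E17.5 (49) it was 11 with the acinar covariate, 26 with the Xist covariate and 21 to 30 leaving out 1 library. For P9 against E17.5 (15) it was 29 without the low-count filter, 23 by DESeq2, 0 with the acinar covariate and 6 to 8 leaving out 1 library, and for P60 against P9 (22) 37 without the filter and 7 to 15 leaving out 1. For any stage (41) it was 74 without the filter, 20 with the acinar covariate and 27 to 46 leaving out 1. In single β cells (7) it was 15 without scaling factors, 0 and 4 within FACS-sorted and manually-picked batches, and 4 to 7 leaving out 1 batch. In α cells (12) it was 20 without scaling factors, and 3 and 6 within the 2 collection methods. Between cell types (46) manually-picked batches gave 26. For the difference of changes (4) DESeq2 gave 9 and FACS-sorted batches 0. The number of channel genes with a read in the median cell of a group, 27 as the median of 13 groups, was 31 without thinning. Kcnq1ot1 in α cells turned to -0.14 without scaling factors. Leaving out the scaling factors moved the median log2 change of all genes to -0.76 in single β cells, -0.73 in α cells and 0.38 between the cell types. The cause was not tested. Replicate numbers were not used as pairs in the main fits. Same-numbered bulk libraries had deviations correlated between -0.24 and 0.39 (over 0.1 in 16 of 42 pairs). The 2 deviations of a stage mirror each other, so each bulk value enters under both replicate numbers. Whether the numbers pair the samples was not settled. With the replicate number as block the bulk counts were 50, 15, 22 and 39 and the single-cell counts 6, 8, 48 and 3. Reads per cell limit the shares of genes near 1 read.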

Other observations

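Levels per length differed between bulk and single β cells at P60. For 55 genes at 1 RPKM or more in bulk, Trpc4ap included, the bulk level was a median of 2.77-fold above that in single cells. It was 2.83-fold for the 28 shorter and 2.63-fold for the 27 longer genes. Choosing genes by their bulk level favours a higher value in bulk. Genes such as Kcnmb1, at 0.0787 RPKM in bulk and 1.11 in single cells, were left out by it. No general difference is drawn from this median. Kcnk16 went the other way, with 205 RPKM in bulk and 270 in single cells.

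The 4 Ngn3-GFP cells at P0, of a line that reports endocrine progenitors, had 29.2 CPM of Cacna1h, 11.1 of Kcnc1 and 0 of Trpm5 in their summed reads. In β cells enriched for proliferation Trpm5 was at 64.9 CPM at P0 and 99.4 at P9.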
